A study of Drosophila melanogaster with 3 samples.

Results

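Mitochondrial ribosomal protein genes of Drosophila melanogaster were examined for binding sites of Pif1A, a protein named for its interaction with a PFTAIRE cyclin-dependent kinase. They were taken as the genes whose symbol is mRp, then L or S, then a number and any letters, in the Ensembl annotation of the dm6 genome. This gave 73 genes of 13968 protein-coding genes on the chromosome arms, of which 47 encode proteins of the large subunit (mRpL) and 26 proteins of the small subunit (mRpS). The binding data are chromatin immunoprecipitation followed by sequencing (ChIP-seq) of whole pupae, males and females mixed and of unknown age, from a transgenic line that stably expresses Pif1A with a C-terminal green fluorescent protein (eGFP) tag, recovered with an antibody against GFP. There were 3 biological replicates and 1 group, so no genotype, treatment or stage was compared, and flies without the tag were not analysed here. All flies carry the tagged gene, and whole pupae mix all cell types, so a site cannot be given to a tissue, and the lists hold no expression values to check the labelled stage. The deposited peak lists hold no read counts, so the depth behind each peak is unknown.

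Mitochondria carry their own ribosome, a descendant of the bacterial one, which translates the few messages encoded by mitochondrial DNA. Those messages encode core subunits of the respiratory chain and of ATP synthase. The RNAs of this ribosome are made inside the organelle, while its proteins are encoded in the nucleus, made on cytosolic ribosomes and imported. The large subunit joins amino acids at the peptidyl transferase centre, and the small subunit holds the messenger RNA for decoding. Some of the proteins have bacterial counterparts, and others are found only in mitochondria.

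Of the 73 genes, 11 had a peak summit within 500 bp of a transcription start site (TSS, the start of any annotated transcript) in the optimal list, the 7283 peaks that passed the authors' test of irreproducible discovery rate. That is 15.1% of the mRp genes, against 14.1% of all protein-coding genes (1965 of 13968), so the share was close to the background. The large subunit gave 8 of 47 (17.0%) and the small subunit 3 of 26 (11.5%). The bound large-subunit genes were mRpL2, mRpL11, mRpL20, mRpL23, mRpL24, mRpL34, mRpL41 and mRpL54, and the bound small-subunit genes were mRpS7, mRpS10 and mRpS23. By arm, 3 of 12 members on 2L had an optimal summit, 3 of 12 on 2R, 3 of 17 on 3L, 2 of 21 on 3R and 0 of 11 on X. Of all protein-coding genes on these arms, between 13.1% (3R) and 16.5% (X) did. These counts are small, and differences between arms were not tested. In the whole pooled list of 30000 entries, which reaches down to background by construction, 17 members (23.3%) had a summit within 500 bp, against 28.3% of all protein-coding genes.

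Peaks were ranked within each list by the signal value the authors deposited, with 1 the highest. For each replicate the 7283 highest peaks were used, as many as the optimal list holds. In replicate 1, 15 members (20.5%) had a summit, against 17.2% of all protein-coding genes. Replicate 2 gave 14 members (19.2%) against 15.8%, and replicate 3 gave 11 members (15.1%) against 15.4%. The mRp share was above the background in replicates 1 and 2 and just below it in replicate 3. Its mean was 18.3% ± 2.85 (SD, n = 3), against 16.1% ± 0.954 for the other protein-coding genes (SD, n = 3), a difference of 2.12 ± 2.16 percentage points that the spread between replicates covers (two-sided exact sign-flip permutation p = 0.5, Benjamini-Hochberg adjusted p = 0.667 over the 4 differences tested). With 3 replicates this test cannot give a p below 0.25, and the p measures only the spread between these 3 samples. In the whole replicate lists 25, 21 and 19 members had a summit (34.2%, 28.8% and 26.0%), against 33.5%, 31.9% and 31.4% of all protein-coding genes, and there the mean difference from the other genes turned to -2.60 points.

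The subunits did not separate. Large-subunit genes had a summit in 19.1%, 19.1% and 17.0% of cases in replicates 1, 2 and 3, against 23.1%, 19.2% and 11.5% of small-subunit genes. The large subunit was higher in 1 of 3 replicates, with a mean of 18.4% ± 1.23 against 17.9% ± 5.88 for the small subunit, a difference of 0.491 ± 4.73 points (SD, n = 3, exact sign-flip permutation p = 1, adjusted p = 1). Its sign turned without replicate 3, to -2.0 points.

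Cytosolic ribosomal protein genes and the genes of respiratory complex I were set beside them as the most closely related groups. Of the cytosolic ribosome's 85 genes, which are known for strong housekeeping promoters, 51.8%, 54.1% and 56.5% had a summit in replicates 1, 2 and 3. The mRp share was lower in 3 of 3 replicates, 18.3% ± 2.85 against 54.1% ± 2.35, a difference of -35.9 ± 5.15 points (SD, n = 3, exact sign-flip permutation p = 0.25, the smallest possible, adjusted p = 0.5). For the 40 complex I genes, which like the mRp genes are nuclear genes for mitochondrial proteins, the shares were 10%, 10% and 12.5%. These were 4, 4 and 5 genes. The mRp share was higher in 3 of 3 replicates, 18.3% ± 2.85 against 10.8% ± 1.44, a difference of 7.43 ± 4.27 points (SD, n = 3, exact sign-flip permutation p = 0.25, adjusted p = 0.5). When each summit was given only to the gene with the nearest TSS, that last difference was 0.719 points. The gene lists were chosen with earlier results of these data known. With its floor of 0.25 the test could call neither difference. Its p measures only the spread between the 3 replicates, not that between genes.

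**Figure D1:**
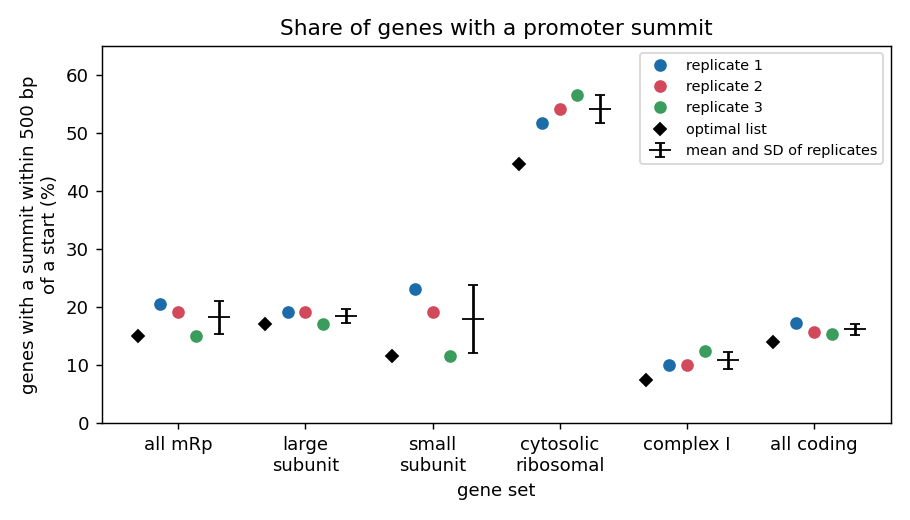
Share of genes (y axis, percent) with a summit within 500 bp of a TSS, by gene set (x axis). Coloured points are the 7283 highest peaks of each replicate, black diamonds the optimal list, and black bars the mean and SD of the 3 replicates. The mRp genes lie between 15.1% and 20.5% in the replicates, near all protein-coding genes (15.4% to 17.2%) and far below the cytosolic ribosomal protein genes (51.8% to 56.5%).

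Among large-subunit genes, mRpL41, a protein found only in mitochondria, had the highest peak, at chr2R:15217561-15218007. Its peak ranked 53 in the optimal list and 74, 33 and 72 in replicates 1, 2 and 3, with deposited scores of 330, 523 and 375. The summit lay 142 bp upstream of the mRpL41 start, between genes. mRpL23, whose bacterial counterpart lies at the mouth of the peptide exit tunnel, had a peak at chr3L:2373438-2373785 that ranked 80 in the optimal list and 100, 62 and 121 in the replicates (scores 296, 418 and 317). This was the only summit of the 11 that lay downstream of the member's start, by 73 bp, in an untranslated exon of mRpL23. These peaks stood among the 121 highest of every replicate list.

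mRpL24, whose bacterial counterpart also lies at the tunnel exit, had a peak at chr2L:4945290-4945642 that ranked 481 in the optimal list and 420, 930 and 361 in the replicates, 131 bp upstream of its start. mRpL2, whose bacterial counterpart lies near the peptidyl transferase centre, had a peak at chr3L:11120376-11120637 that ranked 635, and 634, 673 and 742 in the replicates. Its summit lay 340 bp upstream of the mRpL2 start and inside an intron of FoxK, a forkhead transcription factor gene. For mRpL20, whose bacterial counterpart acts in the assembly of the large subunit, the peak at chr3L:13017995-13018280 ranked 1284, and 801, 2907 and 1171 in the replicates, 265 bp upstream. These 3 peaks recurred in every replicate, and their ranks moved most for mRpL20, where replicate 2 was lowest.

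The other bound large-subunit genes had lower peaks. That of mRpL34 at chr2R:16098483-16098906, 253 bp upstream, ranked 2635 in the optimal list and 3714, 2566 and 2468 in the replicates. For mRpL11, whose bacterial counterpart forms the base of the stalk that receives translation factors, the peak at chr3R:14511517-14511940, 109 bp upstream, ranked 5310, and 7468, 6327 and 6303 in the replicates. mRpL54, a protein found only in mitochondria, had a peak at chr2R:21060471-21060894, 106 bp upstream, that ranked 5339, and 4144, 4524 and 10816 in the replicates. mRpL11 in replicate 1 and mRpL54 in replicate 3 thus fell below the 7283 highest peaks.

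In the small subunit, mRpS23, a protein found only in mitochondria, had the highest peak of any member, at chr2L:13835273-13835652. It ranked 11 in the optimal list with a score of 1919, and 12, 15 and 11 in replicates 1, 2 and 3, with scores of 566, 676 and 675. The summit lay 387 bp upstream of the mRpS23 start, the farthest of the 11. mRpS10, a protein of the small-subunit head, had a peak at chr3R:15229341-15229726 that ranked 55, and 79, 50 and 53 in the replicates (scores 321, 464 and 405), 129 bp upstream. mRpS7, whose bacterial counterpart binds the head of the small-subunit RNA, had a peak at chr2L:10386347-10386770 that ranked 4443, and 3864 and 5278 in replicates 1 and 2, 103 bp upstream. Replicate 3 held no summit within 100 bp of it. The summits of mRpS23 and mRpS10 moved by at most 32 bp between the optimal list and any replicate.

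The DNA under the summits is shown for 5 of the 8 members whose peak recurred in all 3 replicates, in order of score among these 5, because their base composition is described next. The stretches of mRpL41, mRpL23 and mRpL34, whose peaks also recurred, are not printed. Each stretch is 101 bases of the dm6 reference around the optimal summit, read 5′ to 3′ on the strand of the mRp gene, and the 11 capitals are the bases at the summit. The windows are chr2L:13835409-13835509 (minus strand) for mRpS23, chr3R:15229486-15229586 (plus) for mRpS10, chr2L:4945442-4945542 (minus) for mRpL24, chr3L:11120457-11120557 (plus) for mRpL2 and chr3L:13018082-13018182 (minus) for mRpL20.
mRpS23: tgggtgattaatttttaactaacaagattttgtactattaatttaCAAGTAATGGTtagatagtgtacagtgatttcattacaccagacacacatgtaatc
mRpS10: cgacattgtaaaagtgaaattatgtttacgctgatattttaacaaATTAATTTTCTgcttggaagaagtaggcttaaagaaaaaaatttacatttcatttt
mRpL24: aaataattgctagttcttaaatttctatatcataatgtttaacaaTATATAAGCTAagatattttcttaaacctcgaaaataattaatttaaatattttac
mRpL2: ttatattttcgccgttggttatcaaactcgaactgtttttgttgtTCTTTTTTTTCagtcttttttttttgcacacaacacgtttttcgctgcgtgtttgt
mRpL20: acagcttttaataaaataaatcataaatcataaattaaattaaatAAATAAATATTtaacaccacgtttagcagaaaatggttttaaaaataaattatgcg

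The 11 member summits had a median GC content of 24.8% within 50 bp, against 36.6% for the 2033 optimal summits within 500 bp of a coding TSS and 32.7% for all 7283 optimal summits. The lowest member value was 16.8%, at mRpL24, and the highest 33.7%, at mRpL2 and mRpL34. All 11 values were below the median of the summits near coding starts. For mRpL20 the GC content was 17.8%, and the printed stretch is made of short runs of A and T broken by few other bases. None of 6 motifs searched on both strands had its centre within 50 bp of any of the 11 summits. These were TATCGATA (the DNA replication-related element), GGTCACAC (core of the motif bound by M1BP), the E-box CACGTG, the E-box CAGCTG, the GAGA factor motif GAGAG and GCGCATGC (of the type bound by NRF-1 in mammals). Near coding starts, 19.3% of optimal summits held GAGAG and 4.72% held CAGCTG, and each of the other 4 was in at most 1.43% of them.

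**Figure D2:**
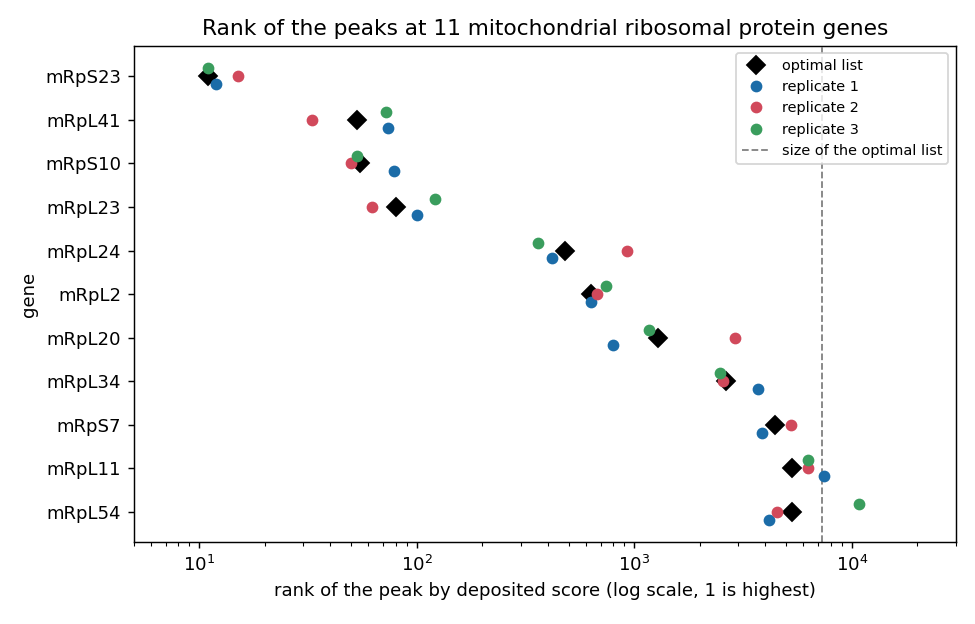
Rank of the peak (x axis, log scale, 1 is highest) at each of the 11 mRp genes (y axis) in the optimal list (black diamonds) and in each replicate (coloured points, a summit within 100 bp). The dashed line marks 7283, the size of the optimal list. The 3 replicate points of mRpS23 lie between ranks 11 and 15, those of mRpL20 between 801 and 2907, and mRpS7 has no point for replicate 3.

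Members' optimal peaks ranked between 11 and 5339 of 7283. Their median rank was 635, against 2814 for the best optimal peaks of all protein-coding genes and 2338 for the 38 bound cytosolic ribosomal protein genes. Among the 100 highest optimal peaks stood those of 4 members (mRpS23, mRpL41, mRpS10 and mRpL23), 36.4% of the bound members, against 82 of the 1965 bound protein-coding genes (4.17%). None of the 38 cytosolic genes reached the 100 highest, and their best rank was 614. In the replicates the median rank of bound members was 2387, 1753.5 and 742, against 2930, 2784 and 2958 for bound protein-coding genes, with mRp genes higher in each. The members were chosen with results of these data known, so these ranks are a description without a test. At 7 of the 11 optimal summits, among them those of mRpS23 and mRpS10, another gene's start was nearer than the member's. The 4 members whose own start was nearer ranked 53 (mRpL41), 80 (mRpL23), 4443 (mRpS7) and 5339 (mRpL54). The members' summits lay a median of 131 bp from the start, against 164 bp for all bound protein-coding genes and 22 bp for the cytosolic ribosomal protein genes.

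Of the 11 optimal peaks, 8 were matched by a summit within 100 bp among the 7283 highest of all 3 replicates (72.7%), against 61.3% of the 1652 best optimal peaks of all protein-coding genes. The optimal list was made from these same 3 replicates, so such matches are not independent of it. Over all 73 genes, 8 had a summit within 500 bp among the 7283 highest of all 3 replicates (10.96%, against 10.4% of all protein-coding genes). A further 4 had one in 2 replicates (5.48%, against 5.18%) and 8 in 1 replicate (10.96%, against 6.77%). The other 53 had one in none (72.6%, against 77.6%). The 8 genes in all 3 replicates were mRpL2, mRpL20, mRpL23, mRpL24, mRpL34, mRpL41, mRpS10 and mRpS23, all of them in the optimal list.

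For every one of the 11 summits another gene started within 500 bp, against 36.6% of the summits of all bound protein-coding genes. In 7 of 11 (63.6%) the other gene's start was nearer to the summit than the member's own, against 16.0% of bound protein-coding genes. The 11 genes are not replicates, so this is a description without a test. Restricted to bound protein-coding genes with another start within 500 bp of the summit, that share was 43.7% of 719. The neighbour was nearer for mRpS23 (CenG1A, a centaurin-type GTPase regulator, 105 bp against 387 bp), mRpL2 (FoxK, 96 bp against 340 bp) and mRpL20 (Icmt, a protein carboxyl methyltransferase, 134 bp against 265 bp). It was also nearer for mRpL34 (Dg, dystroglycan, 131 bp against 253 bp), mRpL11 (HtrA2, a mitochondrial serine protease, 17 bp against 109 bp) and mRpL24 (betaggt-I, a protein prenyltransferase subunit, 87 bp against 131 bp). At mRpS10 the neighbour Art3, an arginine methyltransferase gene, lay 128 bp away against 129 bp, a difference of 1 bp.

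The member's start was nearer at 4 summits. mRpS7 lay 103 bp from its summit against 297 bp for Cdk1, the mitotic kinase. mRpL54 lay 106 bp away against 136 bp for CG15653, and mRpL23 73 bp against 123 bp for CG9004. The summit of mRpL41 lay 142 bp from its start and 436 bp from that of the noncoding gene lncRNA:CR44463. Which of the genes at a shared promoter a summit belongs to cannot be told from its position.

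**Figure D3:**
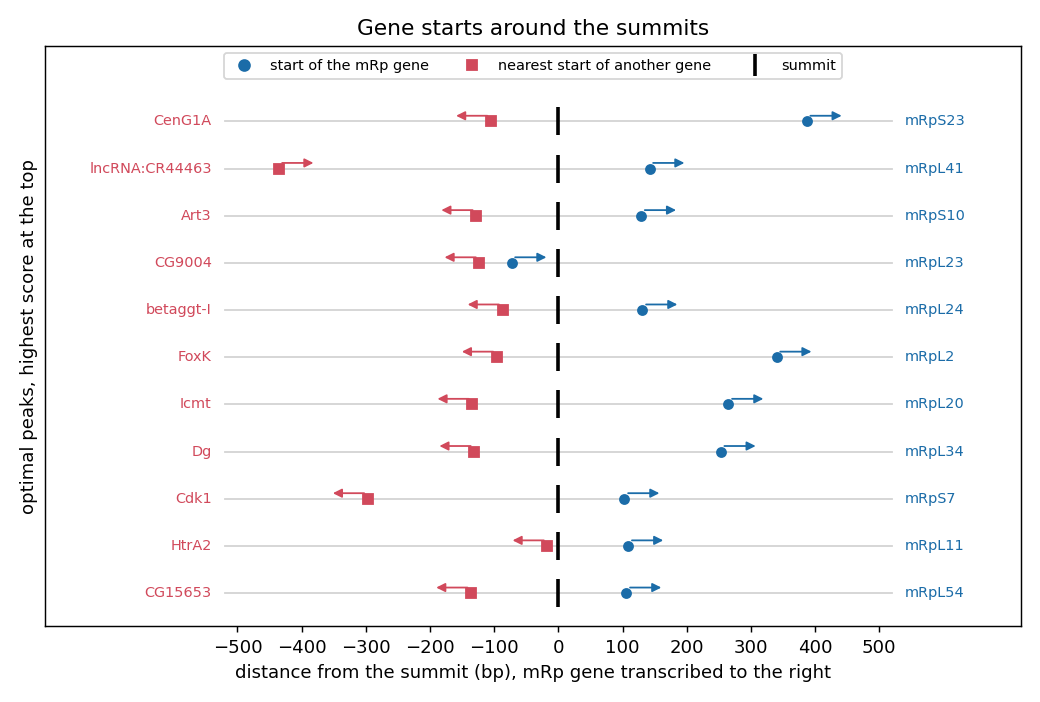
Position of the mRp start (blue circles) and of the nearest start of another gene (red squares) relative to the optimal summit (black bar at 0), in bp, with the mRp gene read to the right and arrows giving the direction of transcription. At 10 of the 11 summits the neighbour is transcribed away from the member, and at mRpL41 it is a noncoding gene on the same strand.

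The order held in the replicates for most genes. In each replicate with a matched summit, the neighbour was nearer for mRpS23, mRpS10, mRpL2, mRpL20 and mRpL11, and the member was nearer for mRpL41, mRpL23 and mRpS7. The order changed for mRpL24 and mRpL34. At mRpL54 the distances were equal in replicate 1, and the member was nearer in replicates 2 and 3. The summit of mRpL24 was 102, 99 and 145 bp from its start in replicates 1, 2 and 3, and 116, 119 and 73 bp from that of betaggt-I. mRpL34 lay 201, 191 and 289 bp away, and Dg 183, 193 and 95 bp. mRpL54 lay 121, 120 and 83 bp away, and CG15653 121, 122 and 159 bp. Assigning each summit to the gene with the nearest start left 4 members (5.48%), against 12.03% of all protein-coding genes and 41.2% of the cytosolic ribosomal protein genes.

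Close opposite-strand pairs are common among mRp genes. A coding gene started on the other strand, pointing away, within 1000 bp of 58 of the 73 genes (79.5%), against 35.2% of all protein-coding genes. All 11 bound members were among these 58 (19.0%), and 0 of the 15 without such a partner had an optimal summit. Among all protein-coding genes the shares were 16.3% with a partner and 12.9% without. The summit lay between the start of the member and the closest partner start in 9 of 11 cases, the exceptions being mRpL2 and mRpL23. In 10 of 11 cases the member's summit also lay within 500 bp of a start of the partner, the exception being mRpL41. This counts the same peaks again and is not separate binding of the partner. No like counts were made over the 799 bound protein-coding genes with a partner. The bound members and their partners start a median of 257 bp apart, less than the 500 bp window. These counts are therefore not shown to be particular to mRp genes. mRp genes were also shorter, with a median length of 909 bp against 2164.5 bp for all protein-coding genes, and 91.8% against 73.5% had a single annotated start.

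For 4 of the 47 unbound members with a partner, the partner was bound, and they are named here although their values were seen first. Of all protein-coding genes with a partner, 16.3% were bound. The like count over unbound protein-coding genes was not made, so these 4 are a description only. At mRpS31 the summit, ranked 2279, lay 89 bp from hzg and 546 bp from mRpS31, the nearest value outside the 500 bp limit. At mRpL33 the summit, ranked 2963, lay 233 bp from norpA, the phospholipase C of phototransduction, and 628 bp from mRpL33. At mRpL22 (partner if, an integrin gene) and mRpL53 (partner AGO1) the partner's best summit lay 1609 and 3600 bp from the member. The widest accepted distances were 387 bp at mRpS23 and 340 bp at mRpL2.

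Beyond the optimal list, 6 members had a summit in the whole pooled list. Their ranks are those of the highest peak within 500 bp in each list, which need not be the same peak. mRpL39 ranked 7504 there, just below the 7283 highest, and 4354, 11166 and 10475 in replicates 1, 2 and 3. Its summit lay 170 and 161 bp upstream in replicates 1 and 3 but 9 bp downstream in replicate 2. mRpS25 ranked 9683, and 8725, 7887 and 25533 in the replicates. mRpS5 ranked 10023, and 10882 and 7210 in replicates 1 and 3, and none of the entries of replicate 2 lay within 500 bp. mRpS21 ranked 12019, and 9862, 10350 and 10553 in the replicates. Its summits differed between lists, 15 bp downstream in the pooled list and 340 bp downstream, 70 bp upstream and 132 bp upstream in replicates 1, 2 and 3. For mRpS16 the pooled rank was 15082, and the replicate ranks were 10623, 15860 and 27565. The last of the 6, mRpL49, ranked 24301. Each of these genes had peaks in 2 or 3 replicate lists, of which only mRpL39 in replicate 1 and mRpS5 in replicate 3 were among the 7283 highest.

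A further 7 members had a summit among the 7283 highest of a replicate and none within 500 bp in the pooled list. mRpS6, whose bacterial counterpart lies on the platform of the small subunit, ranked 2387 in replicate 1 and 3733 in replicate 2, 38 and 98 bp upstream. Replicate 3 had no entry there, and the nearest pooled summit was 1066 bp away. The other 6 (mRpL18, mRpL21, mRpL51, mRpS2, mRpS18B and mRpS26) reached the 7283 highest in 1 replicate only. The highest of these, mRpS2, is named after its values were seen: it ranked 941 in replicate 2, with no entry in replicates 1 and 3 and no pooled summit nearer than 4631 bp. Another 6 members had only lower entries in single lists or pairs of lists. The remaining 43 genes, 29 of the large and 14 of the small subunit, had no summit within 500 bp in any of the 5 lists. No like counts were made over all protein-coding genes, so these classes only account for the members. In the pooled list alone 23.3% of mRp genes had a summit, against 28.3% of all protein-coding genes.

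**Figure D4:**
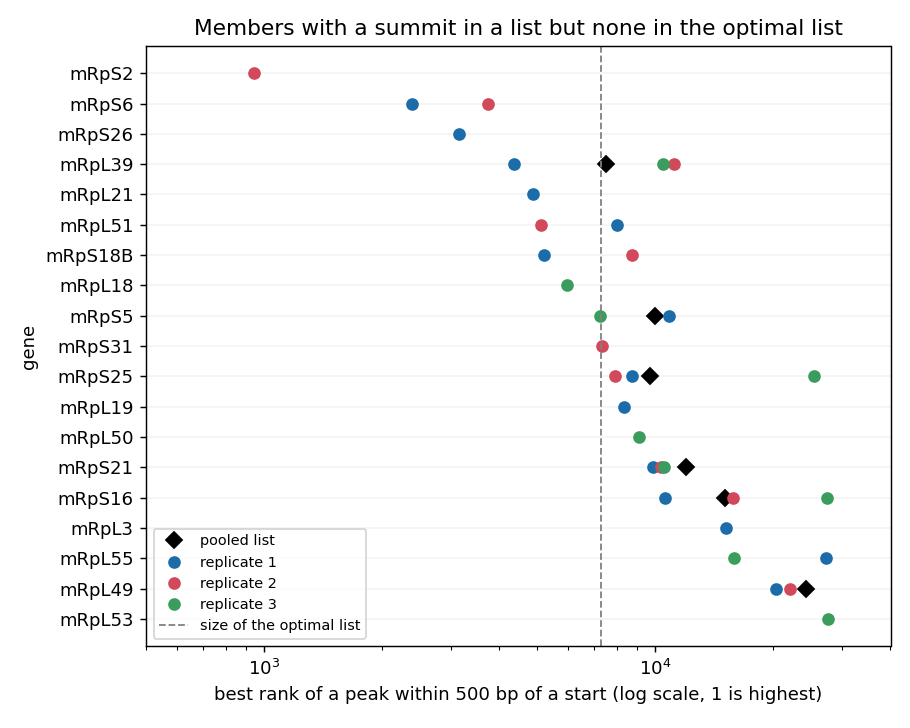
Best rank (x axis, log scale) of a peak within 500 bp of a TSS for the 19 mRp genes (y axis) with a summit in some list but none in the optimal list. Black diamonds are the pooled list, coloured points the replicates and the dashed line is 7283. Only mRpS6 has 2 points left of the line.

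The E-box hexamer CAGCTG, the core of an element known from Drosophila core promoters, was frequent in mRp promoters. In the 250 bases before and 50 after the outermost start of each gene it was present in 40 of 73 (54.8%), against 17.6% of all protein-coding promoters of the same length. The large subunit had 57.4% and the small subunit 50%, against 32.5% in complex I genes, 43.5% in the other genes of mitochondrial gene expression and 8.24% in cytosolic ribosomal protein genes. It did not go with the peaks: 6 of the 11 bound members (54.5%) and 34 of the 62 unbound members (54.8%) held it. Of its 45 sites, 35 (77.8%) began within 40 bp of the start, against 43.7% of the 2777 sites in all protein-coding promoters. At or after the start lay 51.1% of the sites in mRp genes, against 22.3% in all protein-coding genes. The hexamer reads the same on both strands.

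The 6 bound members with the hexamer held 8 sites, of which 5 are printed to show the hexamer in its surroundings. The others, not printed, begin at -9 bp (negative values lie before the start) in mRpL41, 135 bp from its summit, and at -34 and -239 bp from the start of mRpL54, 74 and 131 bp from its summit. Each printed site is 30 bases of the dm6 reference, 5′ to 3′ on the strand of the gene, with CAGCTG in capitals. That of mRpL23 (chr3L:2373715-2373744, minus strand) begins 28 bp before the start and lies 125 bp from the summit. In mRpL11 (chr3R:14511821-14511850, plus) it begins 5 bp before the start, 106 bp from the summit. In mRpL2 (chr3L:11120845-11120874, plus) it begins 10 bp after the start, 352 bp from the summit, and in mRpL24 (chr2L:4945324-4945353, minus) 20 bp after the start, 153 bp from the summit. A second site of mRpL24 (chr2L:4945581-4945610, minus) begins at -237 bp from the start, 104 bp from the summit. Beside them stand sites of unbound members, chosen for lying near the start, at mRpL46 (chr3L:1777425-1777454, plus, 2 bp before the start) and mRpS34 (chr3L:16348064-16348093, plus, 2 bp after the start).
mRpL23: gtggttgacaatCAGCTGtttaaaacaagt
mRpL11: cagcaataccatCAGCTGttgctgcttctt
mRpL2: aacgccgcgtaaCAGCTGttttcagccgca
mRpL24 after the start: ttcagttctcaaCAGCTGattgcaagccgc
mRpL24 before the start: gtccacaaatagCAGCTGcttcttcttacc
mRpL46: tgtgccgcaaatCAGCTGttccggctctgg
mRpS34: agccagccggcaCAGCTGttcgaccttccc

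**Figure D5:**
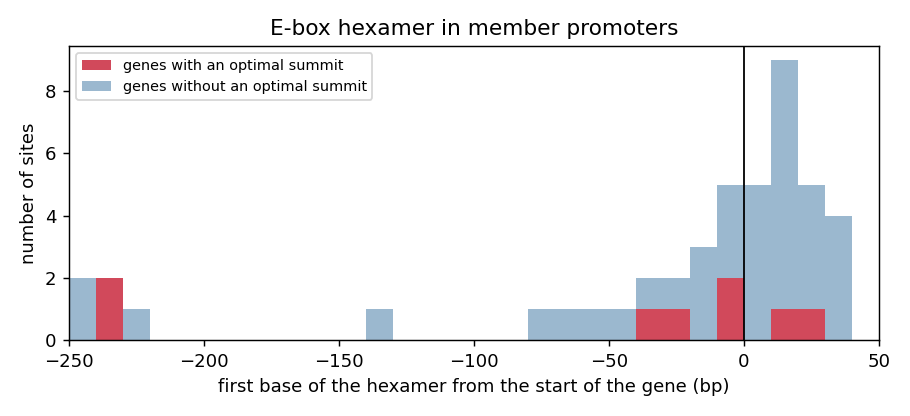
Number of CAGCTG sites (y axis) by position of their first base from the TSS (x axis, bp, in bins of 10 bp) in the promoters of mRp genes, for members with an optimal summit (red) and without one (blue), stacked. Most sites, 35 of 45, lie within 40 bp of the start in both groups together.

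Of the other motifs, TATCGATA was in 20.5% of mRp promoters, against 9.36% of all protein-coding promoters and 29.4% of cytosolic ribosomal protein promoters. GGTCACAC was in 10.96% against 7.69% of all protein-coding promoters, CACGTG in 6.85% against 4.20% and GCGCATGC in 1.37% against 1.05%. GAGAG was in 16.4%, against 29.7%. Among bound and unbound members TATCGATA was in 18.2% and 21.0%, GGTCACAC in 0% and 12.9% and CACGTG in 9.09% and 6.45%. GAGAG was in 18.2% and 16.1% of them, and GCGCATGC in 0% and 1.61%. These shares rest on 11 bound members, and differences between them were not tested.

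Other nuclear genes for mitochondrial gene expression were bound at a similar rate, 6 of 46 (13.0%), against 14.1% of all protein-coding genes. Those bound included 4 of 8 genes of mitochondrial RNA metabolism. PNPase, which degrades mitochondrial RNA, ranked 6 in the optimal list and 2, 6 and 3 in replicates 1, 2 and 3, above every mRp gene. Its summit lay 76 bp downstream of its start with no other start within 500 bp. SLIRP2 ranked 103, and 109, 91 and 133 in the replicates, and its neighbour Mkk4 was nearer to the summit (141 bp against 147 bp). SLIRP1, which shares its start with anox, ranked 1319, and 1562, 1417 and 1400 in the replicates. The SLIRP proteins are RNA-binding relatives of the mammalian stabiliser of mitochondrial messenger RNA.

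The remaining bound genes of that list ranked lower. scu, a subunit of mitochondrial RNase P, ranked 1518, and 814, 5299 and 1268 in the replicates. mIF2, a mitochondrial translation initiation factor, ranked 2649, and 2942, 4592 and 1935 in the replicates. mtSSB, which binds single-stranded mitochondrial DNA, ranked 5324, and 5695, 4329 and 4195 in the replicates. All 6 peaks recurred in every replicate. None of the 15 mitochondrial aminoacyl-tRNA synthetase genes had an optimal summit, against 14.1% of all protein-coding genes. Nor had tko or bonsai, 2 mitochondrial ribosomal protein genes that carry other names. These classes, and that of RNA metabolism, are small, and differences between them were not tested.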

How the data were processed

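The 5 deposited dm6 peak lists were used: 3 from single biological replicates, another from the replicates pooled, and the optimal list, which passed the irreproducible discovery rate procedure. The first 4 feed that procedure and so include background entries, per the file descriptions. Neither aligner nor peak caller nor threshold is given in the sources used here. The 5 dm3 lists were not used. The signal value the authors deposited for each peak ranks peaks within a list. Its scale differs between lists. The −log10 q-value the authors deposited reaches the same ceiling of 3.86 in 3657 pooled peaks, so it was not used to rank. All 7283 optimal peaks are the 7283 highest pooled peaks. Chromatin was sonicated to 200 to 800 bp, per the labels.

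Starts came from Ensembl release 115 (BDGP6), the same assembly as dm6. Sequences came from the RefSeq genome of that assembly. A gene was called bound when a summit (peak start plus deposited offset) lay within 500 bp of any of its starts. Scripts used Python 3.11.15, numpy 2.4.6 and scipy 1.17.1, and the calls were tested on simulated summits. Peaks outside the arms occurred only in replicate 1, where 29984 of 30000 lay on the arms. They kept their place in the ranks but could be given to no gene. Shares per replicate were compared with two-sided exact sign-flip permutation tests over 3 replicates. Members, gene lists and motifs were chosen with earlier results of these data known. Genes named with all values are those with an optimal summit, those among the 7283 highest of at least 2 replicates and the 5 highest pooled ones of the rest.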

Additional observations from a re-analysis of the deposited data

How the results depend on the processing

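The count of 11 mRp genes with an optimal summit was 7 with a 200 bp window, 17 in the whole pooled list and 4 when a summit counted only for the gene with the nearest TSS, coding or of any kind. It was 13 with a 1000 bp window, and 8 to 10 when only optimal peaks matched in the 2 other replicates were kept. Of all protein-coding genes, 14.1% had an optimal summit, 28.3% one in the pooled list and 12.03% one by the nearest TSS of any kind. Leaving out replicates 1, 2 and 3 in turn kept 9, 8 and 10 members, and 9.84%, 10.5% and 10.1% of all protein-coding genes. No such share is given here for the 200 and 1000 bp windows. The mRp share minus that of other protein-coding genes was -2.60 points in the whole replicate lists and -5.18 points with the nearest TSS only. Without 1 replicate it ranged between 1.47 and 3.37 points. The large-subunit share minus the small-subunit share was -0.518 points with a 1000 bp window, -5.67 in the whole lists and -1.17 with the nearest TSS only, and -2.0 to 2.70 points without 1 replicate. The mRp share minus that of cytosolic ribosomal protein genes was between -43.2 and -25.0 points under all 8 alternatives, and minus that of complex I genes between 0.719 and 9.86 points. The alternatives for these last 2 differences were chosen after seeing the data. The neighbour was nearer in 42.9% to 76.9% of member summits under 4 alternatives, and 7 to 10 member peaks recurred under 6. All 4 differences in share were taken within each replicate, and with 1 group there was no second group to pair by replicate. Lists without read counts and 3 replicates limit the precision, and no cause of these changes was tested.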
